A study of Mus musculus with 18 samples.

Results

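The genes described here are 10 members of the bone morphogenetic protein (BMP) pathway and its Id targets, chosen by name: the ligands Bmp2 and Bmp4, the receptors Bmpr1a and Bmpr2, the shared signal carrier Smad4, the inhibitory SMADs Smad6 and Smad7, and Id1, Id2 and Id3. All 10 were found among the 55487 genes of the deposited table, and 9 of them were among the 15247 genes with enough counts to be tested. Bmp4 was not tested. RNA was sequenced from small intestinal organoids of wild-type (WT) C57BL/6 female mice, which are epithelial cultures grown from crypts in Matrigel. The 18 libraries formed 4 groups, namely HCl vehicle (n = 4), norepinephrine (n = 5), DMSO vehicle (n = 4) and UK14,304 (n = 5). Each agonist was given at 1 µM for 4 days, HCl being the vehicle of norepinephrine, which acts on α- and β-adrenergic receptors, and DMSO that of UK14,304, an agonist of α2-adrenergic receptors. The number after the letter m in the sample titles was read as the mouse of origin. On this reading organoids of 4 mice entered all 4 groups and those of mouse 5 entered only the agonist groups, so libraries of the same mouse number share an animal. The methods give an age range for mice bought for the study without saying whether the organoid donors were among them. The medium of the treated organoids is named only as complete growth medium, while another organoid assay of the study used ENR, by its usual meaning a medium of EGF, the BMP antagonist noggin and R-spondin.

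BMP ligands bind a complex of type I and type II receptor kinases, which phosphorylate SMAD1 and SMAD5; these join SMAD4 and enter the nucleus to switch on targets. Among the best known targets are the Id genes, whose proteins bind E proteins and keep them from DNA, and SMAD6 and SMAD7, which act back on the receptors as brakes. In the intestine, BMP activity is highest towards the villus and is held low around the crypt base by antagonists from the mesenchyme, and it restrains stem cells.

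The stretches of DNA just before the RefSeq start sites (GRCm38.p6) of 6 members were at hand, and they are shown where they lie outside the exons of the deposited annotation, to set members with a detected transcript beside Bmp4, which had almost none. The 250 bases before the start of Bmp4 lie at chr14:46390670-46390919 and those of Smad6 at chr9:64022060-64022309. For Bmpr1a the 109 bases at chr14:34502688-34502796 and for Id2 the 89 bases at chr12:25096254-25096342 are outside exons, while for Bmpr2 and Id3 0 of the 250 bases are. The stretches of Bmpr1a and Id2 lie between exons inside the annotated spans of their own genes (chr14:34410734-34503341 and chr12:25093799-25097140). Those of Bmp4 and Smad6 lie before the annotated start of the gene. All 4 genes lie on the minus strand, and the sequences read 5′ to 3′ along it. Capitals mark GGCGCC and the SMAD box GTCT, which was searched on both strands and so also appears as AGAC.
Bmp4: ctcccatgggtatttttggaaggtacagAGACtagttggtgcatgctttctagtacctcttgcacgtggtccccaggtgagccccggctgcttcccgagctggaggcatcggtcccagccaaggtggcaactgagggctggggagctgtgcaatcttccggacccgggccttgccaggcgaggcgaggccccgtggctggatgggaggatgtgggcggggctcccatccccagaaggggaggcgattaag
Smad6: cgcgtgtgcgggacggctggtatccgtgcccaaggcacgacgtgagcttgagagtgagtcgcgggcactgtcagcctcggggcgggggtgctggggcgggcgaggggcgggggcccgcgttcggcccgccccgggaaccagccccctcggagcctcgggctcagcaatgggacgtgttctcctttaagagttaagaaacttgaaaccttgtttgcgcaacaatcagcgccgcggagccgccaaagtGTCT
Bmpr1a: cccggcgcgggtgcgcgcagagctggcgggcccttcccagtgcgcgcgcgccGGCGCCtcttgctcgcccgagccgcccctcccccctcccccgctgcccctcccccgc
Id2: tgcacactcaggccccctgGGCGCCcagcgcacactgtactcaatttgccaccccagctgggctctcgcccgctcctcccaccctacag
In the full 250-base windows before the RefSeq starts, GGCGCC occurs 1 time each for Bmpr1a, Bmpr2 and Id2 and 0 times for Bmp4, Smad6 and Id3. It is present in 9.6% of the 250-base windows of 32851 RefSeq promoters, and GTCT or AGAC in 82.9%. The full windows hold 11 CG dinucleotides for Bmp4, 27 for Smad6, 36 for Bmpr1a, 22 for Bmpr2 and 18 each for Id2 and Id3. The median over all promoters is 6. These matches describe the letters only.

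Transcripts of the pathway were found at every level of the cascade except Bmp4. Levels are given in CPM, the usual unit for a gene's counts relative to the total of its library (here scaled by TMM), and between genes as CPM per kilobase of exon. Smad4, the shared SMAD, had the highest median over the 18 libraries at 35.4 CPM per kilobase. Bmpr1a, a type I receptor, followed at 32.7 CPM per kilobase, and the ranges of these 2 genes overlapped. Among tested genes they stood at percentiles 90.4 and 89.4. Id1 came next at 8.90 CPM per kilobase, apart from its neighbours on both sides in all 18 libraries. Bmpr2, a type II receptor, Id2 and Bmp2 lay close together with medians of 5.10, 4.96 and 4.74 CPM per kilobase, and their ranges overlapped. This order depends on the exon length, which is 17983 bases for Bmpr2. In CPM its mean was 93.6, beside 12.0 for Id2 and 18.0 for Bmp2. Below them came Smad7 at 2.49, Smad6 at 1.16 and Id3 at 0.806 CPM per kilobase, of which Smad6 and Id3 overlapped. Each of these 3 was still read in every library, Id3 with 16 to 72 counts.

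**Figure D1:**
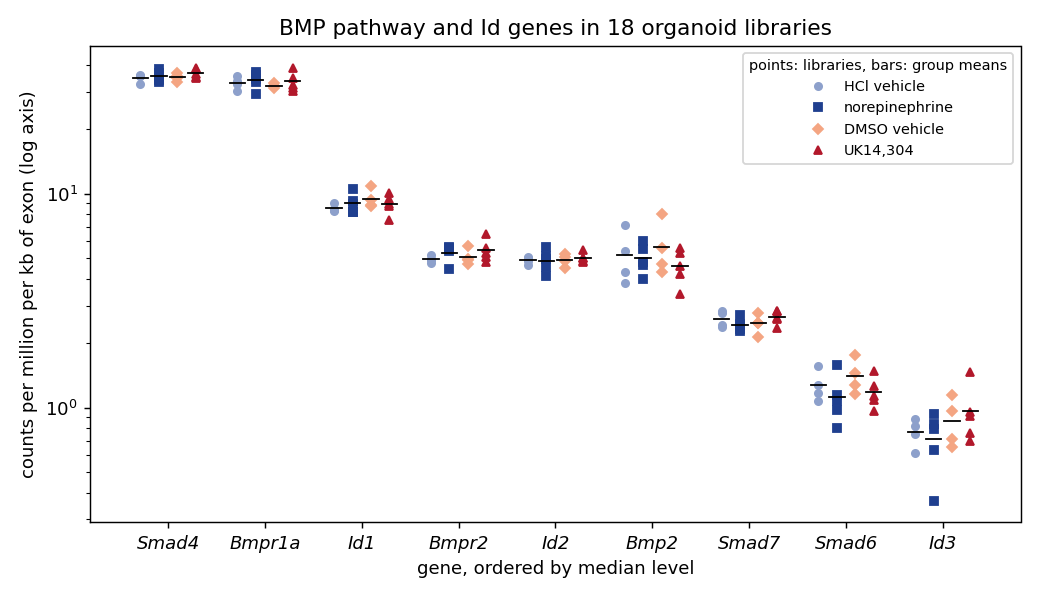
Level of the 9 tested genes in each of the 18 libraries, in CPM per kilobase of exon on a log axis, with points for libraries and bars for group means. Smad4 and Bmpr1a stand above the rest, Id3 is the lowest, and for every gene the 4 groups overlap.

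0 of the 9 tested members passed the threshold (adjusted p under 0.05, edgeR quasi-likelihood test with Benjamini-Hochberg adjustment) with norepinephrine, where 0% of all tested genes passed. 0 of 9 passed with UK14,304, where 0.0394% of tested genes did. When the model held a term for the mouse (the mouse block), the members that passed were again 0 of 9 in each comparison, against 0.105% of tested genes for norepinephrine and 1.22% for UK14,304. At an unadjusted p under 0.05 the members numbered 0 for both agonists, and with the mouse block 0 for norepinephrine and 1, Bmp2, for UK14,304. Over all tested genes these shares were 6.18% for norepinephrine and 11.2% for UK14,304, and with the block 8.4% and 14.8%, so 1 of 9 is no more than the background. DESeq2, with or without the block, called 0 of 9 in both. The groups of libraries overlapped for every member in both comparisons, while they did not overlap for 1.42% of tested genes with norepinephrine and 3.51% with UK14,304. The median log2 fold change over the 9 members was -0.008 with norepinephrine, where that of all tested genes was -0.008, and 0.063 with UK14,304, where that of all tested genes was -0.004. Their median size regardless of sign was 0.076 and 0.10 on the log2 scale, beside 0.082 and 0.09 for all tested genes. A p that misses the threshold leaves room for a change, and the 95% intervals give how much.

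**Figure D2:**
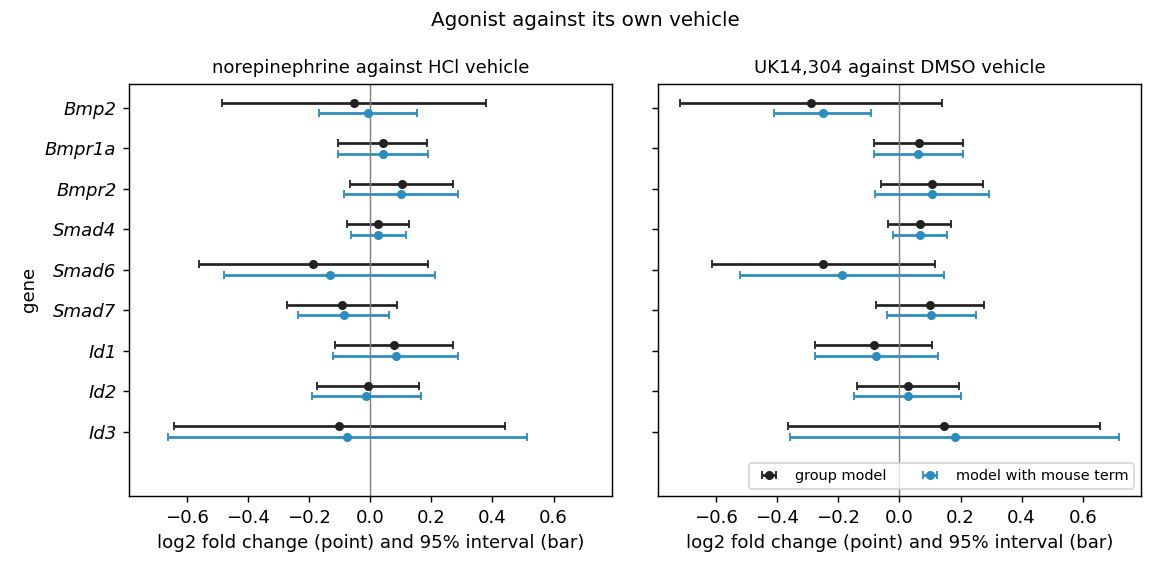
Log2 fold change of each gene for norepinephrine against HCl vehicle (left) and UK14,304 against DMSO vehicle (right), with 95% intervals as bars, from the model of the groups (black) and the model with a term for the mouse (blue). All intervals cross 0 except that of Bmp2 with UK14,304 in the model with the mouse term. The intervals of Smad6 and Id3 are wide in both models, and those of Bmp2 are wide in the model of the groups.

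Bmp2, a ligand that differentiated epithelial cells make themselves (ENSMUSG00000027358, chromosome 2: 133552159 to 133562885 in GRCm38, plus strand), varied with the mouse of origin. In mice 1 to 4 its level was 15.4, 25.3, 13.7 and 19.2 CPM with HCl vehicle. With DMSO vehicle it was 16.7, 28.4, 15.3 and 19.8 CPM. Mouse 2 was the highest and mouse 3 the lowest of these 4 mice in both vehicles, and the same held under both agonists. In mice 1 to 5 it was 17.0, 21.3, 14.2, 19.6 and 16.5 CPM with norepinephrine. With UK14,304 it was 16.3, 19.7, 12.1, 18.8 and 15.0 CPM. The 4 groups overlapped, and each agonist's value in mouse 5 lay between those of mice 3 and 2 in its group. A test of the mouse terms in the blocked model, chosen after the data had been seen, gave Bmp2 an adjusted p of 9.58e-06 (edgeR), with a spread of 0.77 on the log2 scale between the highest and lowest of mice 1 to 4. It was the only one of the 9 members past the threshold in that test, which 13.8% of all tested genes passed.

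Within the mice, Bmp2 was lower with UK14,304 than with DMSO vehicle in 4 of 4 mice, with log2 changes of -0.04, -0.52, -0.34 and -0.08 in mice 1 to 4. A common direction in all 4 mice was seen for 29.5% of tested genes in this comparison. The log2 fold change was -0.29 (SE 0.203, 95% interval -0.72 to 0.14, adjusted p = 0.57), and with the mouse block -0.25 (SE 0.0756, 95% interval -0.41 to -0.09, unadjusted p = 0.00371, adjusted p = 0.131, edgeR). The blocked value passed only when mouse 4 was left out, a fit chosen after the data had been seen. There it was -0.31 (adjusted p = 0.0191, edgeR), and 585 of all tested genes passed. Its direction stayed when any library was left out, with values from -0.39 to -0.07, the smallest being that without the DMSO vehicle library of mouse 2. With norepinephrine the log2 fold change was -0.05 (SE 0.204, 95% interval -0.49 to 0.38, adjusted p = 0.949), and Bmp2 was higher in 3 of 4 mice. The responses to the agonists differed by -0.24 (UK14,304 minus norepinephrine, 95% interval -0.85 to 0.37, adjusted p = 1), and with the block the unadjusted p was 0.0317 and the adjusted p again 1. Here as below, fewer cells of a type and less RNA per cell cannot be told apart in bulk RNA.

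**Figure D3:**
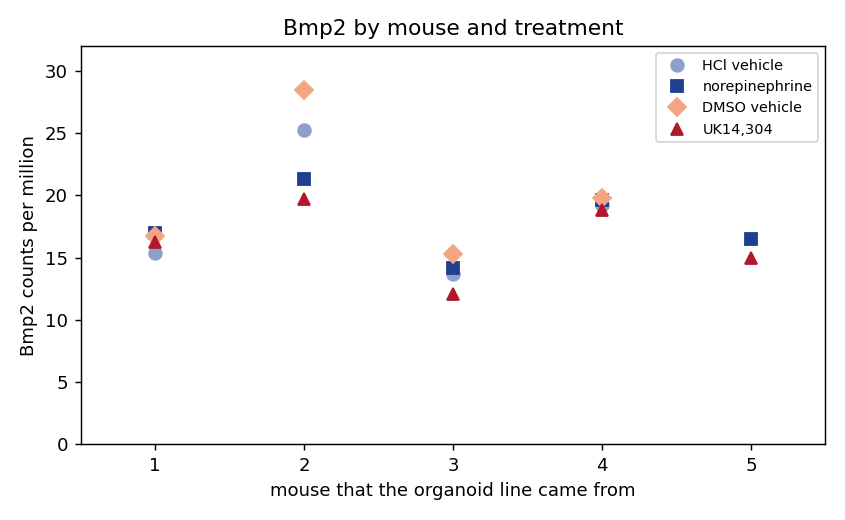
Bmp2 in CPM for each mouse (horizontal axis) and treatment (symbols), 1 point per library. Mouse 2 lies highest, mouse 3 lowest among mice 1 to 4, and the UK14,304 point is under the DMSO vehicle point in each of the 4 mice.

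Bmp4, the other ligand (ENSMUSG00000021835, chromosome 14: 46383520 to 46390669, minus strand), gave 15 counts in all 18 libraries together. There were 2 counts in the 4 HCl vehicle libraries, 7 in the 4 of DMSO vehicle, 0 in the 5 of norepinephrine and 6 in the 5 of UK14,304. These correspond to 0.0215, 0.0694, 0 and 0.0465 CPM. The exact 95% Poisson limits, which cover counting error only, were 0.0026 to 0.0777 CPM for HCl vehicle and reached up to 0.0303 CPM for norepinephrine, so a difference was not detectable at this depth. In a fit without the filter on low counts the adjusted p was 0.793 for norepinephrine and 0.922 for UK14,304 (edgeR). Its exons share 89 bases with the antisense gene Gm15217, and reads on such shared bases were not counted. Among the fixed markers of mesenchyme, which is the main source of Bmp4 in the intestine, Dcn was at 0 in every library and the sum of all 5 (Col1a1, Col1a2, Col3a1, Pdgfra and Dcn) did not exceed 0.346 CPM.

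For the receptors the differences were within the spread between libraries. Bmpr1a (ENSMUSG00000021796, chromosome 14: 34410734 to 34503341, minus strand) had the highest level of the type I receptors examined here. Its mean was 209 ± 14.4 CPM (SD, n = 4) with HCl vehicle and 215 ± 19.0 (n = 5) with norepinephrine, a log2 fold change of 0.04 (95% interval -0.10 to 0.19, adjusted p = 0.876). It was 203 ± 3.94 CPM (n = 4) with DMSO vehicle and 213 ± 20.99 (n = 5) with UK14,304, a log2 fold change of 0.06 (95% interval -0.08 to 0.21, adjusted p = 0.733), and higher in 4 of 4 mice. Within mice 1 to 4 the log2 changes were 0.002, 0.09, 0.01 and 0.27, the largest being that of mouse 4. A common direction in all 4 mice was seen for 29.5% of tested genes in this comparison. The upper limits of these intervals correspond to 1.14-fold with norepinephrine and 1.16-fold with UK14,304. Its exons share 290 bases with the antisense gene Gm17110.

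Bmpr2 (ENSMUSG00000067336, chromosome 1: 59763400 to 59879014, plus strand) was 88.3, 92.6, 85.4 and 89.3 CPM in mice 1 to 4 with HCl vehicle. With norepinephrine it was 97.0, 101, 99.8, 80.1 and 98.7 CPM in mice 1 to 5. The norepinephrine libraries of mice 1, 2, 3 and 5 were above every HCl vehicle library and that of mouse 4 below every one. The log2 fold change was 0.10 (SE 0.0808, 95% interval -0.07 to 0.27, adjusted p = 0.739, edgeR). With the mouse block and without mouse 4 it was 0.16 (adjusted p = 0.0367, edgeR), a fit in which 2300 of all tested genes passed. That fit was chosen after the data had been seen. Mouse 4 was the only mouse of the 4 in which Bmpr2 was lower with norepinephrine (log2 change -0.16). Leaving it out thus raises the value, and the fit is no separate support for a rise. With DMSO vehicle Bmpr2 was 89.0, 84.0, 102.5 and 87.8 CPM, and with UK14,304 it was 86.2, 90.9, 99.96, 117 and 94.9 CPM. The highest of all 18 libraries was thus that of mouse 4 with UK14,304 and the lowest that of the same mouse with norepinephrine. The log2 fold change with UK14,304 was 0.11 (95% interval -0.06 to 0.28, adjusted p = 0.593), higher in 2 of 4 mice.

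Smad4, the partner of the receptor SMADs (ENSMUSG00000024515, chromosome 18: 73639009 to 73703780, minus strand), had the lowest coefficient of variation of the 9 members over all libraries, at 4.97%. Its group means were 129 ± 5.47 CPM with HCl vehicle, 132 ± 7.83 with norepinephrine, 130 ± 5.25 with DMSO vehicle and 136 ± 6.82 with UK14,304 (SD, n = 4, 5, 4 and 5). The log2 fold changes were 0.02 with norepinephrine (95% interval -0.08 to 0.13, adjusted p = 0.895) and 0.07 with UK14,304 (95% interval -0.04 to 0.17, adjusted p = 0.587), the narrowest intervals of the 9 members.

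Some members' levels went with a property of the libraries that is itself computed from the levels of all tested genes. The slope of log2 level on GC content across all tested genes, in log2 units per 10 points of GC, ran from -0.222 in the UK14,304 library of mouse 4 to 0.195 in the norepinephrine library of mouse 4. It was 0.0435 to 0.0732 in the 4 HCl vehicle libraries and negative in 4 of the 5 norepinephrine libraries. With DMSO vehicle it was 0.0996, 0.121, -0.0384 and 0.0574 in mice 1 to 4. With UK14,304 it was 0.0605, -0.0161, -0.0877, -0.222 and -0.00175 in mice 1 to 5. The slope thus tended to be lower under the agonist in both comparisons. The longest transcripts of Bmpr2, Bmpr1a, Id2 and Smad4 hold 41.0%, 41.3%, 45.1% and 49.4% GC, under the median of 49.6% over tested genes. Those of Bmp2, Id1, Id3, Smad7 and Smad6 hold 52.5%, 54.7%, 55.6%, 56.9% and 60.8%.

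In the library of the lowest slope Bmpr1a, Bmpr2 and Smad4 each had their highest value of the 18, at 245, 117 and 144 CPM, and Id2 was at rank 2. Id1 had its lowest there, at 8.73 CPM, and Smad6 was at rank 17. In the library of the highest slope Bmpr1a, Bmpr2 and Id2 had their lowest values, at 185, 80.1 and 10.02 CPM, and Smad4 was at rank 16. Id1 and Smad6 were at rank 2 there. Bmp2, Smad7 and Id3 were at ranks 4 to 8 in both libraries. These libraries were picked as the ends of a slope fitted on the same levels. Genes poor in GC therefore rank high in the first and low in the second on average.

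Removing the trend on GC content in the blocked model left 0 of 9 members past the threshold. The log2 fold changes of Bmpr2 went from 0.10 to 0.02 with norepinephrine and from 0.11 to 0.02 with UK14,304. Those of Bmpr1a went from 0.04 to -0.04 and from 0.06 to -0.02, to the other side of 0. Those of Smad4 hardly moved, from 0.03 to 0.04 and from 0.07 to 0.08. Id1 went from 0.08 to 0.14 with norepinephrine and from -0.08 to -0.02 with UK14,304. Id2 went from -0.01 to -0.05 and from 0.03 to -0.02, Id3 from -0.08 to -0.01 and from 0.18 to 0.24, and Bmp2 from -0.01 to 0.03 and from -0.25 to -0.21.

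**Figure D4:**
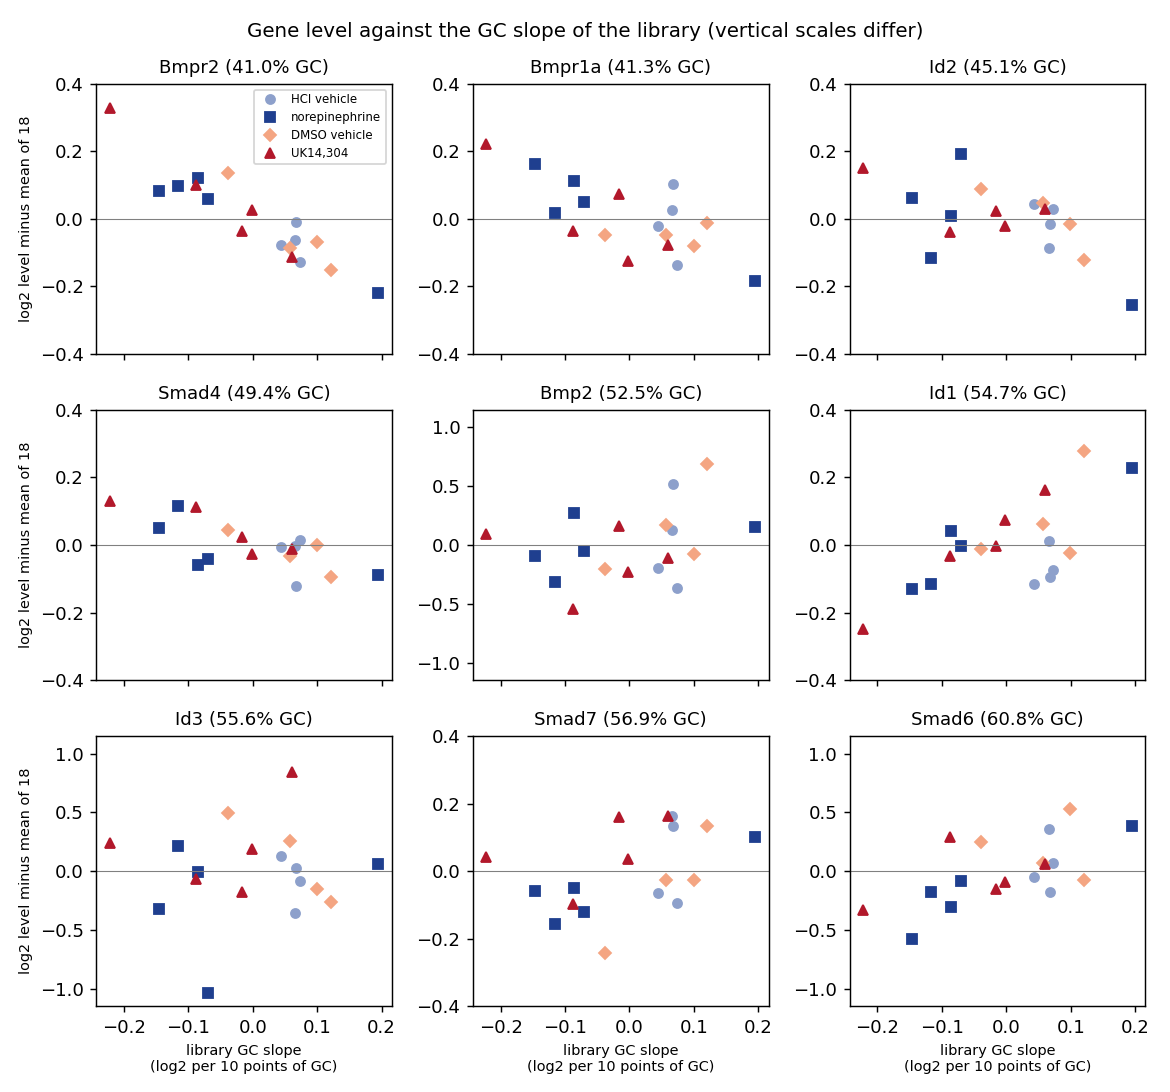
Log2 level of the 9 tested genes in each library, minus the mean of the 18, against the slope of that library's levels on GC content (log2 units per 10 points of GC), with genes ordered by their GC content and vertical scales that differ. Bmpr2 and Bmpr1a fall from left to right, with the UK14,304 library of mouse 4 at the left end and the norepinephrine library of mouse 4 at the right, while Id1 rises and Id3 shows no clear slope.

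The inhibitory SMADs Smad6 and Smad7 are targets of the pathway and part of its negative feedback. Smad6 (ENSMUSG00000036867, chromosome 9: 63953076 to 64022059, minus strand) was 3.75, 3.43, 4.09 and 5.00 CPM with HCl vehicle and 3.66, 3.12, 3.42, 5.09 and 2.58 CPM with norepinephrine. With DMSO vehicle it was 5.65, 3.69, 4.63 and 4.07 CPM and with UK14,304 4.06, 3.48, 4.75, 3.07 and 3.63 CPM. The ranges overlapped in both comparisons, and Smad6 was lower under the agonist in 3 of 4 mice in each. The log2 fold changes were -0.19 with norepinephrine (SE 0.179, 95% interval -0.56 to 0.19, adjusted p = 0.772) and -0.25 with UK14,304 (SE 0.176, 95% interval -0.62 to 0.12, adjusted p = 0.57). With 66 to 146 counts per library, counting alone gave a coefficient of variation of about 10.1%, against 20.2% observed over all libraries. With the mouse block the log2 fold changes were -0.13 and -0.19, and with the GC trend also removed -0.04 and -0.11 (adjusted p = 0.957 and 0.714).

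Smad7 (ENSMUSG00000025880, chromosome 18: 75367529 to 75395935, plus strand) was 10.9, 12.6, 10.7 and 12.8 CPM with HCl vehicle and 10.5, 11.1, 10.3, 12.3 and 11.0 CPM with norepinephrine. It was lower with norepinephrine in 4 of 4 mice, with log2 changes of -0.06, -0.18, -0.06 and -0.06. With DMSO vehicle it was 11.3, 12.6, 9.68 and 11.3 CPM and with UK14,304 12.8, 12.8, 10.7, 11.8 and 11.8 CPM. Here it was higher in 4 of 4 mice, with log2 changes of 0.19, 0.03, 0.14 and 0.07. A common direction in all 4 mice was seen for 13.6% of tested genes with norepinephrine and 29.5% with UK14,304. The log2 fold changes were -0.09 (SE 0.0861, 95% interval -0.27 to 0.09, adjusted p = 0.767) and 0.10 (SE 0.0855, 95% interval -0.08 to 0.28, adjusted p = 0.643). Their difference was 0.19 (95% interval -0.06 to 0.45, unadjusted p = 0.126, adjusted p = 1), and with the mouse block the unadjusted p was 0.0636. With the GC trend removed in the blocked model the norepinephrine value of Smad7 was -0.01 (adjusted p = 0.976) and the UK14,304 value 0.17 (adjusted p = 0.143). For the contrast of the 2 agonists' effects 0% of tested genes passed, with or without the block.

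**Figure D5:**
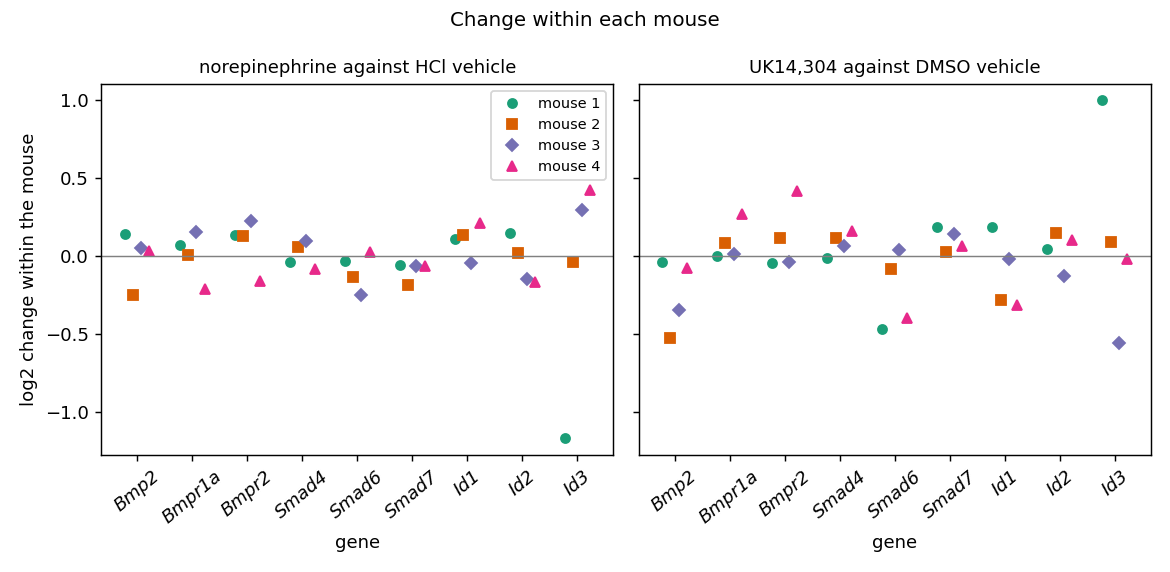
Log2 change within each of mice 1 to 4 for norepinephrine against HCl vehicle (left) and UK14,304 against DMSO vehicle (right), 1 point per mouse. Smad7 lies below 0 in all 4 mice on the left and above 0 in all 4 on the right, Bmp2 is below 0 in all 4 on the right, and Id3 spreads most.

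The Id genes gave no common direction. Id1 (ENSMUSG00000042745, chromosome 2: 152736251 to 152737410, plus strand) was 9.58, 9.73, 9.87 and 10.5 CPM with HCl vehicle and 10.4, 10.7, 9.58, 12.2 and 9.48 CPM with norepinephrine. With DMSO vehicle it was 10.2, 12.6, 10.3 and 10.9 CPM and with UK14,304 11.6, 10.4, 10.2, 8.73 and 10.9 CPM. Its log2 fold change was 0.08 with norepinephrine (95% interval -0.12 to 0.27, adjusted p = 0.816), higher in 3 of 4 mice, and -0.08 with UK14,304 (95% interval -0.28 to 0.11, adjusted p = 0.729), higher in 1 of 4. As ratios, these intervals ran from 0.922 to 1.21 times the vehicle level with norepinephrine and from 0.826 to 1.08 times with UK14,304.

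Id2 (ENSMUSG00000020644, chromosome 12: 25093799 to 25097140, minus strand) had group means of 11.9 ± 0.488 CPM with HCl vehicle, 11.9 ± 1.40 with norepinephrine, 12.0 ± 0.757 with DMSO vehicle and 12.2 ± 0.638 with UK14,304 (SD, n = 4, 5, 4 and 5). Its log2 fold changes were -0.01 (95% interval -0.18 to 0.16, adjusted p = 0.984) and 0.03 (95% interval -0.14 to 0.20, adjusted p = 0.908). Of the 9 members its fold changes lay nearest to 0 in both comparisons.

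Id3 (ENSMUSG00000007872, chromosome 4: 136143497 to 136145755, plus strand) had the fewest counts of the 9 tested members. It was 1.58, 1.46, 1.35 and 1.10 CPM with HCl vehicle and 0.658, 1.42, 1.67, 1.499 and 1.13 CPM with norepinephrine. With DMSO vehicle it was 1.28, 1.18, 2.04 and 1.73 CPM and with UK14,304 2.63, 1.26, 1.36, 1.71 and 1.64 CPM. Mouse 1 gave both the lowest and the highest of the 18 values, with norepinephrine and UK14,304. The log2 fold changes were -0.10 (SE 0.26, 95% interval -0.64 to 0.44, adjusted p = 0.923) and 0.15 (SE 0.245, 95% interval -0.36 to 0.66, adjusted p = 0.838). Without that mouse's norepinephrine library the first was 0.06, and without its UK14,304 library the second was -0.06. The observed coefficient of variation over all libraries was 28.3%, and counting alone gave 16.5%.

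The 2 vehicles were also set against each other as a background. Between HCl and DMSO vehicle 0 of the 9 members passed, as did 0% of tested genes, and the log2 differences (HCl minus DMSO) ran from -0.18 for Id3 to 0.07 for Smad7. The 2 vehicle groups overlapped for every member, while they did not for 1.11% of tested genes. Bmp2 and Id1 were each lower with HCl than with DMSO vehicle in 4 of 4 mice, and 10% of tested genes had a common direction there. For Bmp2 the log2 difference was -0.13 (95% interval -0.58 to 0.33, adjusted p = 1), and within mice 1 to 4 it was -0.12, -0.17, -0.16 and -0.04. For Id1 it was -0.15 (95% interval -0.35 to 0.06, adjusted p = 1). Bmp2 was thus higher in the DMSO vehicle library than in both the HCl vehicle and the UK14,304 library of each of these mice.

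The rest of the pathway was read from a fixed list of 50 further genes, of which 32 were tested. 0 of the 32 passed in either direction in any comparison, with or without the mouse block. With norepinephrine 14 were higher and 18 lower, with a median log2 fold change of -0.01, and with UK14,304 19 were higher and 13 lower, with a median of 0.02. The 3 with the highest mean CPM were Ppm1a, a phosphatase that acts on receptor SMADs, at 224 CPM, Rgmb, a BMP co-receptor, at 166.5 CPM, and Tcf12, an E protein that Id proteins bind, at 144 CPM. Ppm1a had log2 fold changes of 0.04 (adjusted p = 0.776) with norepinephrine and 0 (adjusted p = 0.996) with UK14,304. Those of Rgmb were 0.01 (adjusted p = 0.988) and -0.05 (adjusted p = 0.873). Those of Tcf12 were -0.01 (adjusted p = 0.934) and 0.06 (adjusted p = 0.548).

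Some genes outside that rule are named after their values were seen. The receptor SMADs Smad1 and Smad5 stood at 9.25 and 9.54 CPM per kilobase, while Smad9 averaged 0.0721 CPM with 0 to 5 counts per library. Of the type I receptors, Acvr1 stood at 5.215 CPM per kilobase and Bmpr1b was at 0 in 15 of 18 libraries. The type II receptor Acvr2a stood at 9.78 CPM per kilobase, above Bmpr2. The secreted antagonists Nog, Grem1, Chrdl1 and Sostdc1 and the ligands Bmp5, Gdf5 and Gdf6 were at 0 in all 18. Other secreted antagonists were read in every library, Twsg1 at 12.7 CPM per kilobase, Nbl1 at 1.14 and Fstl1 at 0.531. Of the ligands other than Bmp2, Bmp3, which opposes BMP signals, had 18.4 CPM per kilobase and Bmp7 6.58. At an unadjusted p under 0.05 there were 2 of the 32 genes with norepinephrine and 4 with UK14,304, beside 6.18% and 11.2% of all tested genes, and they were Bmp3 and Tcf4 with both agonists and Bambi and Acvr2b with UK14,304. Bmp3 stood 0.14 log2 units above the vehicle with norepinephrine and with UK14,304 (adjusted p = 0.713 and 0.398, unadjusted p = 0.0181 and 0.0182). Bambi, a decoy receptor induced by BMP and Wnt signals, was -0.33 with norepinephrine and -0.45 with UK14,304 (adjusted p = 0.713 and 0.398). The E protein Tcf4 was 0.18 with each (adjusted p = 0.713 and 0.399). Acvr2b, a type II receptor, was 0.03 with norepinephrine and 0.20 with UK14,304 (adjusted p = 0.93 and 0.435).

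Across the 18 libraries the 5 genes whose log2 levels ran most like Id1, among 9279 genes of at least 10 CPM, were Rapgef1 (Pearson r = 0.848), Acaa1a (0.846), Sharpin (0.841), Fam173a (0.839) and Hdac10 (0.834). The 99th percentile of all candidates was 0.711. For the other members r with Id1 was 0.413 for Smad7, 0.387 for Bmp2, 0.379 for Smad6, 0.06 for Id3, -0.55 for Id2, -0.58 for Bmpr1a, -0.64 for Smad4 and -0.68 for Bmpr2. The libraries share mice and GC slopes, so these values are descriptions; the 5 genes hold 55.2% to 56.8% GC, above the median of 49.4% over the candidates.

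The libraries held 21866149 to 27850373 counts. A ribosomal RNA gene took 1.83% to 3.06% of counts in 7 of them and 0.313% to 0.619% in the other 11, and the 7 were 1 of HCl vehicle, 3 of DMSO vehicle, 2 of norepinephrine and 1 of UK14,304. Within the libraries of low share Bmp2 was at -0.27 with UK14,304 and within those of high share at -0.30 (log2 fold change, adjusted p = 0.925 and 1), each with 1 library on one side of the comparison. The 5 epithelial markers summed to 5460 to 6050 CPM in every library, and the markers of smooth muscle, endothelium and immune cells to at most 0.486, 0.991 and 2.88 CPM. The 5 Paneth cell markers summed to medians of 2990 CPM with HCl and 3100 with DMSO vehicle, and 2500 with norepinephrine and 2610 with UK14,304, with ranges that overlapped. With the mouse block, Lyz1 and Defa22 passed as lower with norepinephrine (log2 fold changes -0.37 and -0.69, adjusted p = 0.0019 and 0.0062) and with UK14,304 (-0.31 and -0.70, adjusted p = 0.0031 and 0.00208), as did Ang4 with UK14,304 (-0.27, adjusted p = 0.022), each in 4 of 4 mice. Of the other epithelial cell type markers 1 passed with the block, the goblet cell gene Agr2 with UK14,304 (-0.16, adjusted p = 0.0324). In the main fit without the block, Lyz1 and Defa22 did not pass with norepinephrine (adjusted p = 0.713 and 0.723, edgeR) or UK14,304 (0.508 and 0.518). Neither did Ang4 and Agr2 with UK14,304 (0.543 and 0.26). The Paneth cell markers Defa17 and Defa24 did not pass with the block either, for norepinephrine (0.556 each) or UK14,304 (0.153 and 0.0978). The part of cell make-up, GC slope and ribosomal RNA share in the values above was not tested beyond these figures.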

How the data were processed

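RNA was measured in 18 small intestinal organoid cultures from 5 mice, in 4 groups. The authors prepared libraries with the KAPA mRNA HyperPrep kit, mapped single reads with STAR 2.7.3 to GRCm38 and counted them with featureCounts (Subread 1.6.4 in the submitters' notes, version 2.0.1 with Ensembl 102 in the file header), without strand. The deposited table holds these raw counts for 55487 genes. Symbols were found for 55141.

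Tests came from edgeR's robust quasi-likelihood model of all 4 groups (version 4.0.16, R 4.3.3) after TMM scaling and filterByExpr by group. The 15247 tested genes were adjusted together by the Benjamini-Hochberg method, with a threshold of 0.05. Log2 CPM used a prior count of 2. The fit with the mouse as replicate block and DESeq2 1.42.0 were among the alternatives. The sample titles end in the letter m and a number, which was taken as the mouse of origin, so that libraries of 1 number share an animal. Between each agonist library and its own vehicle library of the same mouse (mice 1 to 4), deviations from the group means correlated at 0.119 to 0.52. The same correlation was not computed between libraries of different mice, so these values have no comparison. The closest libraries within a group still differed beyond sampling noise, with a chi-square per gene of 7.24. The scripts were tested on simulated data.

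The members and gene lists were chosen with earlier results of these data known. All 10 members are named in every comparison, and of the other pathway genes the 3 with the highest mean CPM and any that passes, with others named after their values were seen. The list of 50 leaves out Bmp1, a protease and not a BMP ligand.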

Additional observations from a re-analysis of the deposited data

Results flagged for a closer look

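In 36 sets of libraries, each of 1 tested gene in 1 group, 2 held a library far from the rest by Dixon's criterion at the 95% level, which chance reaches in about 1 of 20. Bmpr2 in the norepinephrine library of mouse 4 was 80.09 CPM, while the nearest of the other 4 was 97.01 CPM. That library had the highest GC slope of the 18. Smad4 in the HCl vehicle library of mouse 2 was 121.3 CPM, while the other 3 lay at 131.5 to 133.4 CPM.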

How the results depend on the processing

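Over the alternatives, 815 of 882 values of single members kept their direction and their side of the threshold, 65 changed sign and 2 passed the threshold. Both that passed came from the replicate block without mouse 4, which was chosen after seeing the data, as were the fits by ribosomal RNA, those without mouse 5 and the block with only the groups compared: Bmpr2 with norepinephrine and Bmp2 with UK14,304, so that 1 of 9 members passed in each. In that fit 2300 of all tested genes passed with norepinephrine and 585 with UK14,304. The cause of these changes was not tested. With 16 to 72 counts per library, depth limits Id3 most, and Bmp4 could not be tested.

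With norepinephrine, the sign turned for Bmp2 (0.03 with the block and GC trend removed, 0.01 with the length trend removed), Bmpr1a (-0.04 with the GC trend removed, -0.03 in libraries over 1% ribosomal RNA), Smad4 (-0.01) and Id3 (0.26) in the same libraries, and Id2 (0 without a filter, 0.01 with the length trend removed, 0.02 with the block without mouse 4, 0.01 in libraries under 1% and 0 over 1% ribosomal RNA). With UK14,304 it turned for Bmpr1a (-0.02 with the GC trend removed and -0.02 over 1%), Id2 (-0.02 with the GC trend removed, -0.03 with a ribosomal RNA term, -0.02 under 1%), Id3 (-0.21 under 1%), Bmpr2 (-0.08 over 1%) and Id1 (0.08 over 1%). For the difference between the agonists it turned for Bmpr2 (-0.01 without a filter, -0.01 with the length trend removed, -0.06 with the ribosomal RNA term, -0.14 without mouse 4), Bmpr1a (0 and -0.10 in the latter 2 fits), Smad6 (0.09 and 0.01), Id2 (-0.03 and -0.01) and Smad4 (-0.01 without mouse 4). Between the vehicles Id2 was 0.03 without mouse 4. In the libraries under 1% there was 1 of DMSO vehicle, and in those over 1% 1 each of HCl vehicle and UK14,304, assumed to vary like the other groups.

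Leaving out 1 library at a time moved the norepinephrine values of Bmp2 between -0.17 and 0.14, Smad4 between 0 and 0.06, Id2 between -0.06 and 0.06 and Id3 between -0.21 and 0.06. With UK14,304 Id2 ran from -0.01 to 0.07 and Id3 from -0.06 to 0.32. For the difference between the agonists Bmpr1a ran from -0.04 to 0.06, Bmpr2 from -0.08 to 0.07, Smad6 from -0.18 to 0.10 and Id2 from -0.02 to 0.09. Between the vehicles Bmp2 ran from -0.31 to 0.09, Bmpr2 from -0.07 to 0.04, Smad4 from -0.03 to 0.02 and Id2 from -0.05 to 0.03.

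Over all tested genes, 6 passed with UK14,304, and 2 to 7 with 1 library left out, the lower counts of 2, 3, 3 and 2 coming without the DMSO vehicle libraries of mice 1 to 4. The count was 22 without a filter, 1 with only the 2 groups compared, 46 with DESeq2, and 0 in the libraries under and 0 in those over 1% ribosomal RNA. With the replicate block it was 186, with GC trend removed 626, with length trend removed 199, with only the 2 groups compared 525, with the ribosomal RNA term 78, with DESeq2 272 and without mouse 4 585. With norepinephrine 0 passed, and with the block 16, then 31, 15, 15, 16, 34 and 2300 under the same settings in that order. For the difference between the agonists 1 passed with the block and length trend removed, 1 with DESeq2 and the block, and 12 with the block without mouse 4.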
